A study of Homo sapiens with 6 samples.

Results

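The amino acid transporter genes examined here were SLC7A5, SLC3A2, SLC38A2, SLC38A1, SLC1A5, SLC1A4, SLC7A1, SLC7A6 and SLC43A1. They were chosen by name, for the import of amino acids through the plasma membrane, and all 9 were found among the 25420 genes listed by Entrez identifier. The cells were MOLM-13, an established human acute myeloid leukaemia cell line, and both groups came from this line alone. The control group received DMSO and the treated group received 10 µM C646, an inhibitor of the histone acetyltransferases CBP and p300, for 2 h. In both groups 100 µM 4-thiouridine (4sU), which replaces some of the uridine of RNA as it is made, was present for the last 1 h. Each group had 3 libraries, and nothing in the labels says whether these came from separate cultures, so the p-values measure the spread between libraries, which may be technical.

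Chemical alkylation of the extracted RNA makes reverse transcription read 4sU as C, where the genome has T. A read with such T > C conversions therefore stands for a newly synthesized transcript, and the sum of all reads on the 3′ UTR of a gene stands for its total RNA. In bulk libraries such as these, fewer transcripts per cell and fewer cells that express a gene cannot be told apart. No library without 4sU was analysed here, so the T > C reads that sequencing errors or variants give were not measured.

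Cells take up amino acids through families of solute carriers that differ in substrate and in coupling. SLC7A5 (LAT1) exchanges large neutral amino acids such as leucine and works only as a heterodimer, in which the heavy chain SLC3A2 (4F2hc, CD98) brings the light chain to the membrane. SLC7A6 (y+LAT2) is another light chain of SLC3A2 and exchanges arginine for neutral amino acids. SLC1A5 (ASCT2) and its paralog SLC1A4 (ASCT1) exchange small neutral amino acids, glutamine among them for SLC1A5. SLC38A1 (SNAT1) and SLC38A2 (SNAT2) import glutamine and other small neutral amino acids together with sodium. SLC7A1 (CAT1) carries arginine and lysine, and SLC43A1 (LAT3) lets branched-chain amino acids and phenylalanine pass without a heavy chain. Leucine and arginine are known to activate the growth kinase complex mTORC1, and transcription of several of these genes is known to respond to amino acid shortage through ATF4 and to growth signals through MYC.

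The RefSeq promoter windows of the 9 genes, from 250 bases before to 50 bases after an annotated start (GRCh38.p14), numbered 16, because some genes have several starts. They are shown for the binding motifs of regulators that were measured in the same libraries. On both strands, the E-box CACGTG, bound by MYC-MAX, occurred in 3 of these windows, from SLC7A5, SLC1A5 and SLC43A1, and in 7.26% of all 35116 windows. TGACNNNGC, the core of the antioxidant response element bound by NRF2, occurred in 5 windows, from SLC7A5, SLC3A2, SLC1A5, SLC7A1 and SLC7A6, and in 13.3% of all windows. TGATGNAAT, the element bound by ATF4 with C/EBP factors, occurred in 0 of the 16 windows and in 0.991% of all windows. Sequence outside the windows, introns included, was not searched, so elements there would be missed. The motifs were searched separately and did not overlap in these windows. The lines below give stretches of 30 bases on the strand of the gene, with the motif in capitals, for every E-box and every TGACNNNGC found in the 16 windows.
SLC7A5, E-box, chr16:87869620-87869649, minus strand: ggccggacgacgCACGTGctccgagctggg
SLC1A5, E-box, chr19:46787326-46787355, minus strand: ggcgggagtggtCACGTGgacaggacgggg
SLC43A1, E-box, chr11:57515797-57515826, minus strand: cagcgggcgagtCACGTGcgcgtgaaactc
SLC7A5, TGACNNNGC, chr16:87869490-87869519, minus strand: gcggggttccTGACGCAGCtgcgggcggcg
SLC3A2, TGACNNNGC, chr11:62881652-62881681, plus strand: cgagggtgggTGACTCAGCgtcctccttcc
SLC1A5, TGACNNNGC on the opposite strand, chr19:46787385-46787414, minus strand: cctggatcttGCGAGGTCAgctcccgctcc
SLC7A1, TGACNNNGC, chr13:29595754-29595783, minus strand: tgcccggcggTGACGCGGCcgagcgggccg
SLC7A6, TGACNNNGC, chr16:68264319-68264348, plus strand: gctcgagcccTGACGAGGCagctgggggct
SLC7A6, TGACNNNGC, chr16:68264487-68264516, plus strand: cggcggcgggTGACGTGGCggggcggggcc
The E-box of SLC7A5 began 130 bases before the start, that of SLC1A5 50 bases before a start and that of SLC43A1 112 bases before a start. The same 6 letters thus stood near a start of a gene whose new RNA rose and of 2 whose new RNA fell, and TGACNNNGC stood near a start of 2 genes whose new RNA rose (SLC7A5 and SLC3A2) and of 3 whose new RNA fell (SLC1A5, SLC7A1 and SLC7A6). A match is a description of the letters only, since no binding was measured.

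The libraries held between 7252597 and 10225448 reads on 3′ UTRs, of which 477824 to 833410 were T > C reads. T > C reads made up 8.79% ± 0.0637 (SD, n = 3) of the reads in DMSO and 6.48% ± 0.203 in C646. Among the 7722 genes tested in new RNA, the median log2FC between C646 and DMSO was −0.83, against a median of 0.00 (−0.00344) over 10851 genes in total RNA. Of 11 myeloid and leukaemia markers, 10 had at least 126 reads in every library and ANPEP had 4 to 16. In new RNA 6 of the 7 markers tested were called lower (adjusted p of at most 0.01 and a log2FC of at most −1), where 33.0% of all genes were, with the transcription factor SPI1 at −3.21, the surface marker CD33 at −1.99 and the receptor FLT3 at −1.47. Scaled by T > C reads 2 of the 7 were called lower, against 7.53% of all genes. In total RNA 1 of the 11, SPI1, was called lower, against 1.88% of all genes. By the adjusted p alone 2 were lower, SPI1 and CD33 (−0.55, edgeR, adjusted p = 0.00815), against 6.29% of all genes. By that rule 1 was higher, FLT3 (0.62, edgeR, adjusted p = 0.00558), against 9.81% of all genes. Of 8 markers of other blood and epithelial cells, CD3E and HBB had 0 reads in every library, GATA1, MS4A1 and EPCAM had at most 1, 4 and 14, and the highest count of any was 50 reads, for KRT18.

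New RNA of the transporters moved in both directions. Levels are given as scaled CPM, the reads of a gene relative to all reads of its library on 3′ UTRs after TMM scaling, and the log2FC compares C646 with DMSO. Scaled by all reads of a library, SLC7A5, SLC3A2 and SLC38A2 rose in C646 and the other 6 genes fell at an adjusted p of at most 0.01 (edgeR's quasi-likelihood test, with p-values adjusted by the Benjamini-Hochberg method over all genes tested). Of all genes tested, 3.83% rose and 38.0% fell by that rule, so that the falls of 6 of the 9 came beside a general fall of T > C reads. With a log2FC of at least 1 asked for as well, 1 gene, SLC7A5, was called higher, against 2.97% of all genes, and 4 genes, SLC7A6, SLC43A1, SLC38A1 and SLC1A4, were called lower, against 33.0% of all genes. In total RNA, SLC7A5 was the 1 gene called higher, against 5.89% of all genes, and 0 were called lower, against 1.88%.

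**Figure D1:**
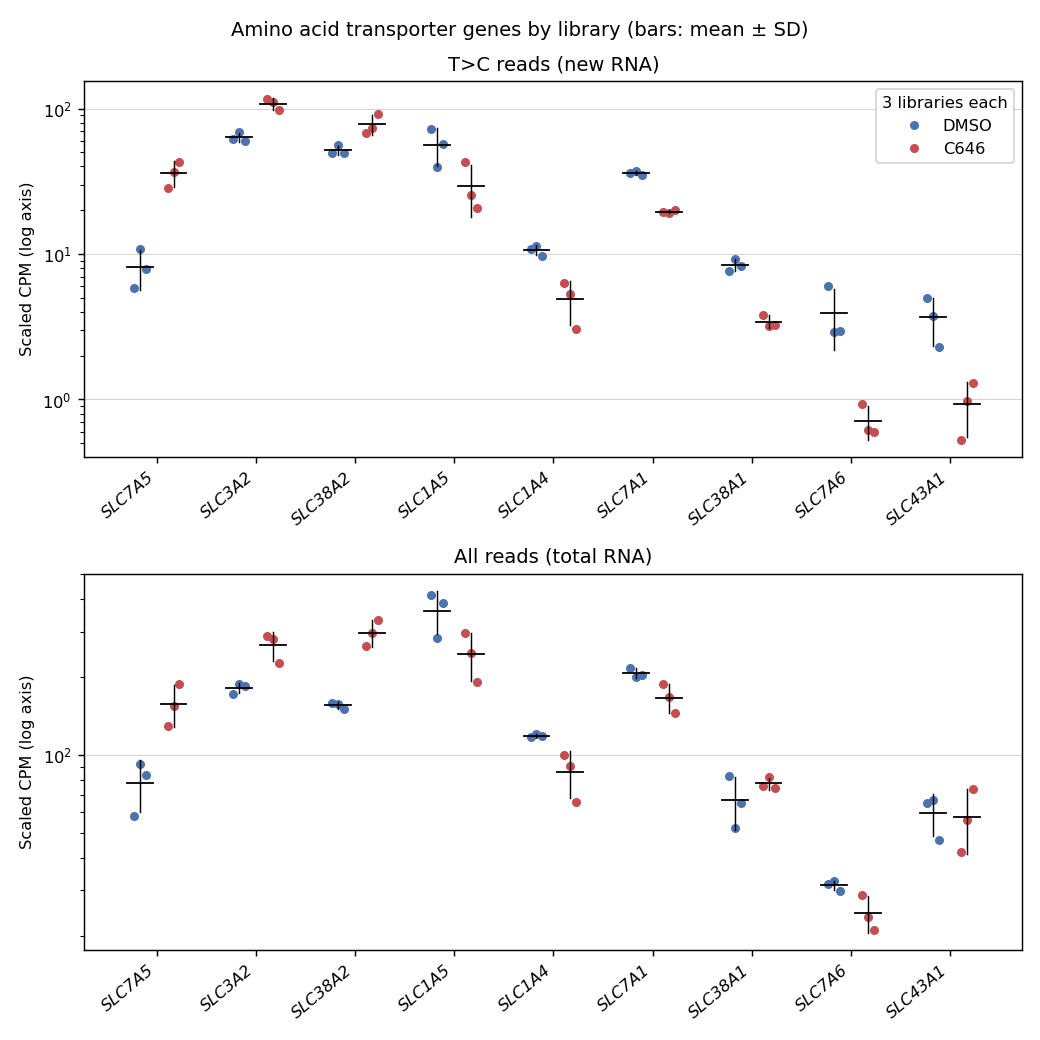
Scaled CPM (log axis) of T > C reads (top) and of all reads (bottom) of the 9 transporter genes, with 1 point per library, 3 in DMSO (blue) and 3 in C646 (red), and black bars for the mean ± SD. In T > C reads the groups lie apart for every gene except SLC1A5, and SLC7A5 rises from 5.80 to 10.8 CPM in DMSO to 28.6 to 43.0 CPM in C646.

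SLC7A5, the light chain that carries leucine, had the largest rise of the 9. Its 3′ UTR lies at chr16:87830023-87832969 on the minus strand of GRCh38. Its T > C reads came to 5.80, 10.8 and 7.95 scaled CPM in DMSO replicates 1, 2 and 3 and to 28.6, 36.6 and 43.0 scaled CPM in C646 replicates 1, 2 and 3. The lowest C646 library thus lay well above the highest DMSO library. The log2FC in new RNA was 2.16 ± 0.22 (SE), a 4.45-fold rise, with an adjusted p of 5.22e-09 in edgeR's test, and 98.8% of the genes tested had a smaller log2FC. All reads of SLC7A5 came to 58.3, 91.9 and 83.8 scaled CPM in DMSO and to 130, 155 and 188 scaled CPM in C646, again without overlap. In total RNA its log2FC was 1.02 ± 0.18 (adjusted p = 0.000975), close to the fold threshold. It fell to 0.85 without DMSO replicate 1 and to 0.87 without C646 replicate 3, which ended the call by fold though not the adjusted p of at most 0.01.

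SLC3A2, the heavy chain, rose by less than its light chain. Its 3′ UTR is short, at chr11:62888694-62888883 on the plus strand. Its T > C reads came to 61.8, 68.8 and 59.7 scaled CPM in DMSO and to 117, 110 and 97.1 scaled CPM in C646. All 3 C646 libraries lay above all 3 DMSO libraries, and the log2FC in new RNA was 0.77 ± 0.15 (edgeR, adjusted p = 7.31e-05). All reads came to 172, 188 and 186 scaled CPM in DMSO and to 289, 280 and 227 scaled CPM in C646, a log2FC of 0.54 ± 0.14 in total RNA (adjusted p = 0.00777). Without a library, that adjusted p ran from 0.00231 to 0.0505, above 0.01 in 5 of the 6 cases, and the log2FC from 0.49 to 0.65.

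The number of SLC7A5 T > C reads per SLC3A2 T > C read was compared within each library, where no scaling enters. The log2 ratio was −2.98 ± 0.38 (SD, n = 3) in DMSO and −1.59 ± 0.43 in C646, and the groups did not overlap. The difference of 1.38 had p = 0.1 in a two-sided exact permutation test, the smallest p that 3 libraries against 3 can give, and 0.16 after adjustment over 8 ratios. In all reads the difference was 0.49 (p = 0.3, exact permutation test), with overlapping groups, and it was 0.24 without C646 replicate 3. For the other light chain, SLC7A6, the log2 ratio to SLC3A2 in T > C reads went from −4.04 ± 0.61 in DMSO to −7.05 ± 0.23 in C646, a difference of −3.01 without overlap (p = 0.1, exact permutation test). The light chain SLC7A5 thus gained on the heavy chain in new RNA and the light chain SLC7A6 lost, by differences larger than the spread within each group.

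SLC38A2, a sodium-coupled importer of glutamine and other small neutral amino acids, rose in new RNA and in total RNA. Its 3′ UTR lies at chr12:46358188-46361110 on the minus strand. Its T > C reads came to 49.5, 55.9 and 49.8 scaled CPM in DMSO and to 68.4, 73.5 and 91.2 scaled CPM in C646. All reads came to 159, 158 and 150 scaled CPM in DMSO and to 263, 295 and 333 scaled CPM in C646. On both measures every C646 library was above every DMSO library. The log2FC was 0.59 ± 0.16 in new RNA (edgeR, adjusted p = 0.00221) and 0.93 ± 0.13 in total RNA (adjusted p = 0.000213). In new RNA the adjusted p rose to between 0.0130 and 0.0169 without DMSO replicate 1, DMSO replicate 3 or C646 replicate 3.

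**Figure D2:**
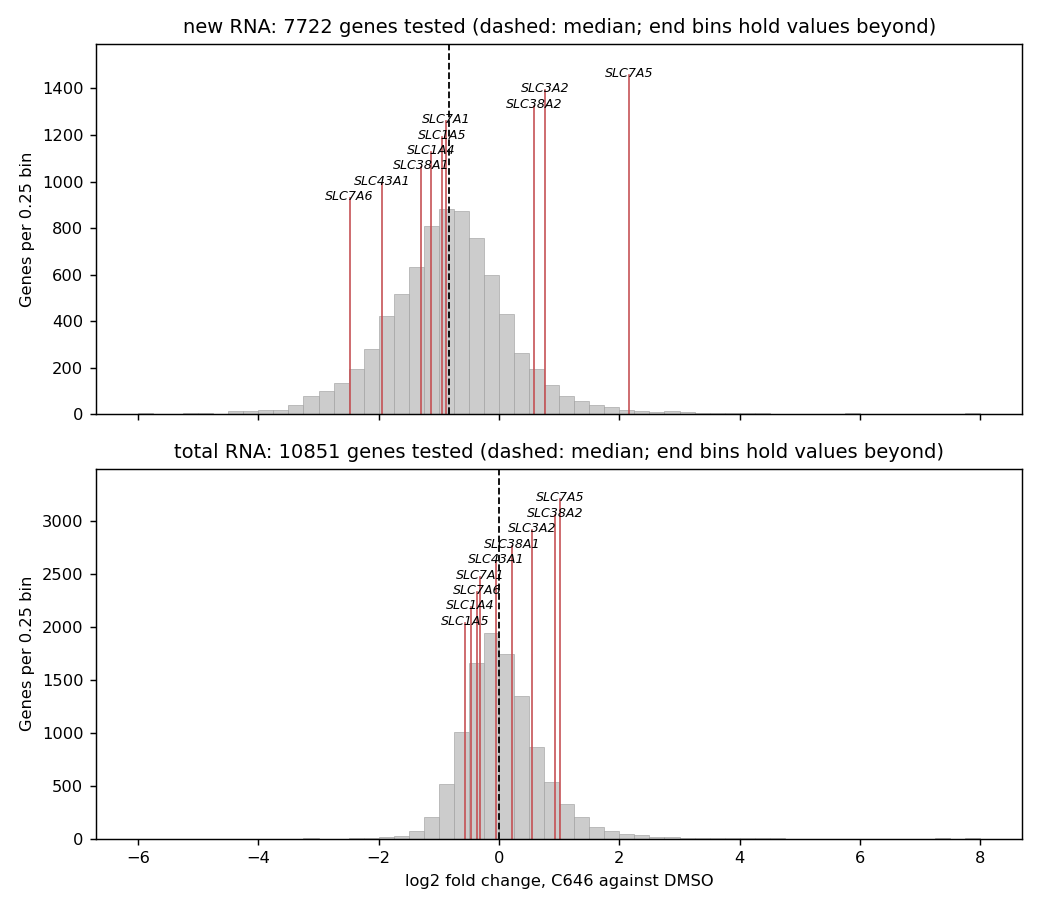
Number of genes per bin of 0.25 in log2FC, C646 against DMSO, for the 7722 genes tested in new RNA (top) and the 10851 in total RNA (bottom), with a red line at each transporter gene and a dashed line at the median of all genes. In new RNA SLC7A1, SLC1A5 and SLC1A4 lie close to the median of −0.83, SLC7A5 lies far to the right at 2.16 and SLC7A6 to the left at −2.48.

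Its paralog SLC38A1 did the opposite in new RNA. Its reads fell on the 3′ UTR at chr12:46183056-46188969 on the minus strand, and a further 3′ UTR entry had 0 reads. Its T > C reads came to 7.69, 9.29 and 8.21 scaled CPM in DMSO and to 3.83, 3.19 and 3.27 scaled CPM in C646, without overlap. The log2FC in new RNA was −1.29 ± 0.30 (edgeR, adjusted p = 0.000626). All reads overlapped between the groups, with 83.3, 52.1 and 65.0 scaled CPM in DMSO against 76.0, 82.3 and 74.5 in C646, and the log2FC in total RNA of 0.21 ± 0.17 did not pass the test (adjusted p = 0.345). The log2 ratio of SLC38A1 to SLC38A2 in T > C reads was −2.61 ± 0.055 (SD, n = 3) in DMSO and −4.45 ± 0.32 in C646 (p = 0.1, exact permutation test). In all reads it was −1.24 ± 0.34 and −1.93 ± 0.20 (p = 0.1, exact permutation test), also without overlap.

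SLC1A5 and SLC1A4, exchangers of small neutral amino acids, fell together. The 3′ UTR of SLC1A5 lies at chr19:46774883-46775509 on the minus strand and that of SLC1A4 at chr2:65021147-65023866 on the plus strand. SLC1A5 had 72.7, 39.9 and 56.8 scaled CPM of T > C reads in DMSO and 42.6, 25.2 and 20.8 in C646. Its groups overlapped, since C646 replicate 1 lay above DMSO replicate 2, and its log2FC in new RNA was −0.94 ± 0.22 (edgeR, adjusted p = 0.000565). Without DMSO replicate 1 the log2FC was −0.72 (adjusted p = 0.0153) and without C646 replicate 2 it was −0.84 (adjusted p = 0.0105), neither of which passed 0.01. Without DMSO replicate 2 it was −1.14 (adjusted p = 0.000265) and without C646 replicate 1 it was −1.29 (adjusted p = 8.9e-06), and SLC1A5 was then called lower. SLC1A4 had 10.9, 11.4 and 9.70 scaled CPM of T > C reads in DMSO and 6.35, 5.27 and 3.07 in C646, without overlap. Its log2FC in new RNA was −1.14 ± 0.28 (adjusted p = 0.00125), and without C646 replicate 3 it was −0.87, below the fold threshold. In total RNA the log2FC was −0.56 ± 0.18 for SLC1A5 (adjusted p = 0.0248) and −0.47 ± 0.16 for SLC1A4 (adjusted p = 0.0314), and neither passed 0.01. SLC1A5 did so without DMSO replicate 2 (−0.72, adjusted p = 0.00998) or C646 replicate 1 (−0.71, adjusted p = 0.00936). The ratio of SLC1A5 to SLC1A4 did not differ beyond its spread, with log2 values of 2.36 ± 0.49 in DMSO and 2.56 ± 0.28 in C646 in T > C reads (p = 0.7, exact permutation test) and p = 0.8 in all reads.

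SLC7A1, the arginine and lysine carrier, had the tightest values of the genes that fell. Its 3′ UTR lies at chr13:29509414-29514479 on the minus strand. Its T > C reads came to 35.8, 37.0 and 35.0 scaled CPM in DMSO and to 19.3, 19.2 and 20.04 scaled CPM in C646. The groups lay far apart, at a log2FC of −0.88 ± 0.17 (edgeR, adjusted p = 0.000114), 0.05 below the median of all genes. All reads came to 218, 200 and 204 scaled CPM in DMSO and to 188, 168 and 145 in C646. These groups did not overlap either, but the log2FC of −0.31 ± 0.13 in total RNA did not pass the test (adjusted p = 0.0890).

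SLC7A6 and SLC43A1 had the largest falls in new RNA and the fewest T > C reads. SLC7A6 (3′ UTR at chr16:68297329-68301823, plus strand) had 57, 21 and 22 T > C reads in DMSO and 7, 5 and 6 in C646. SLC43A1 (3′ UTR at chr11:57484531-57485095, minus strand) had 47, 27 and 17 T > C reads in DMSO and 4, 8 and 13 in C646. For each of them every C646 library lay below every DMSO library. The log2FC in new RNA was −2.48 ± 0.52 for SLC7A6 (edgeR, adjusted p = 0.000217) and −1.94 ± 0.51 for SLC43A1 (adjusted p = 0.00192). Both calls rested on DMSO replicate 1, which held the most T > C reads of each gene: without it the log2FC was −2.04 (adjusted p = 0.0119) and −1.65 (adjusted p = 0.0318). In total RNA the log2FC was −0.36 ± 0.17 for SLC7A6 (adjusted p = 0.124) and −0.05 ± 0.20 for SLC43A1 (adjusted p = 0.866). The 3′ UTR of SLC7A6 overlaps that of SLC7A6OS on the opposite strand, and the libraries keep the strand.

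**Figure D3:**
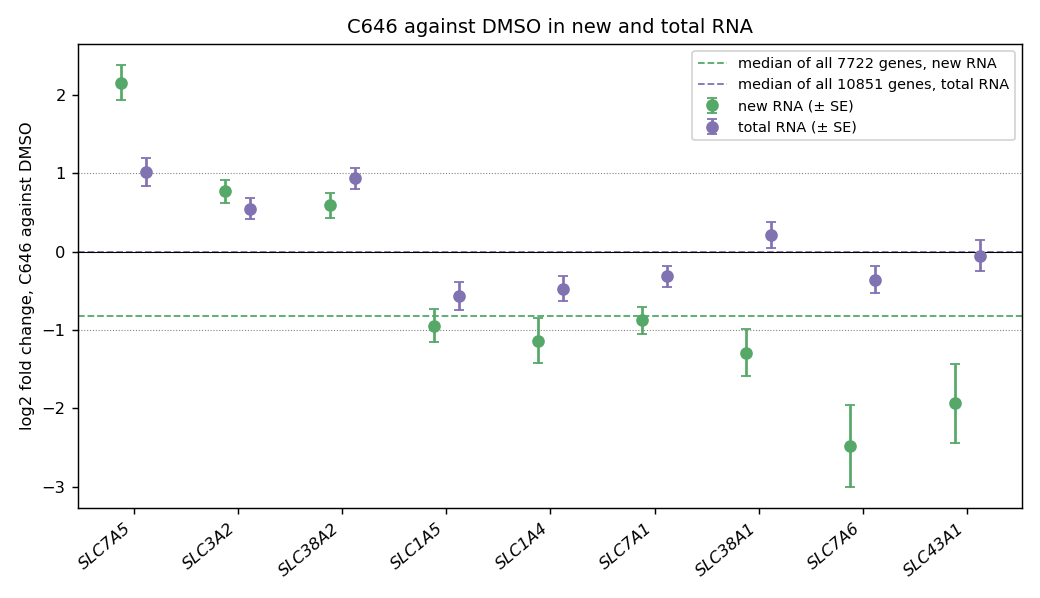
The log2FC of each gene in new RNA (green) and in total RNA (purple), with bars for ± SE, dashed lines at the medians of all genes tested and dotted lines at −1 and 1. SLC7A5 and SLC3A2 lie higher in new than in total RNA, SLC38A2 lies lower in new RNA but above 0, and the other 6 lie below their total RNA values.

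Counting genes whose groups did not overlap gave a like picture. In new RNA 8 of the 9 had no overlap between DMSO and C646 libraries, against 62.3% of all genes tested, and in total RNA 6 of the 9, against 47.5%. In total RNA the 3 genes that passed an adjusted p of at most 0.01 were SLC7A5, SLC3A2 and SLC38A2, all higher, where 9.81% of all genes rose by that rule. By the same rule 0 of the 9 fell in total RNA, against 6.29% of all genes. SLC1A5 passed with DESeq2 (log2FC −0.57, adjusted p = 0.00844), without a filter on low counts (adjusted p = 0.00116) and with the replicate number as a block (adjusted p = 0.00221), and SLC1A4 passed with that block (−0.49, adjusted p = 0.00707). At an unadjusted p below 0.05 edgeR's quasi-likelihood model over all genes gave 3 lower genes, SLC1A5, SLC1A4 and SLC7A1, at the log2FC given above, where 20.6% of all genes were lower by that rule.

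The size of the falls depended on the scaling. Scaling by the T > C reads themselves sets the general fall of T > C reads to 0, and it moved the median log2FC of all genes from −0.83 to 0.01. On that scale 3 of the 9 were called higher, against 9.21% of all genes, and 0 were called lower, against 7.53%. SLC7A5 then stood at 2.99, SLC3A2 at 1.61 and SLC38A2 at 1.42, while SLC7A1, SLC1A5, SLC1A4 and SLC38A1 stood between −0.04 and −0.45. At an unadjusted p below 0.05 edgeR gave 2 lower, against 19.6% of all genes tested, and DESeq2 1, against 11.2%. SLC7A6 and SLC43A1 stood at −1.65 (edgeR, adjusted p = 0.0172) and −1.11 (adjusted p = 0.0968). The 3 rises thus passed the test on both scales, and the 6 falls only where the scale keeps the general fall.

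**Figure D4:**
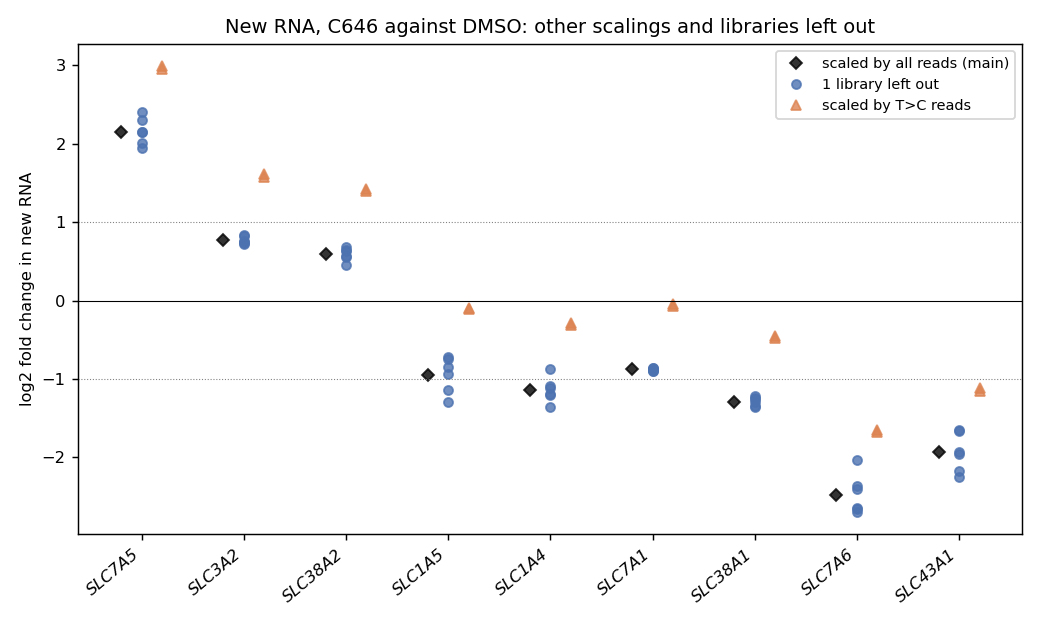
The log2FC in new RNA of each gene as reported (black), with each of the 6 libraries left out in turn (blue) and under 2 scalings by T > C reads (orange). No gene changes sign, the T > C scaling lifts every gene by a like amount, and SLC7A1 and SLC1A5 then lie near 0.

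The share of T > C reads among all reads of a gene needs no scaling between libraries. For SLC7A5 it was 10.4% ± 1.21 (SD, n = 3) in DMSO and 22.8% ± 0.816 in C646. For SLC3A2 it was 34.9% ± 2.40 and 40.8% ± 1.82. The groups did not overlap for either chain, and no other gene of the 9 had a higher share in C646. For SLC38A2 the share went from 33.2% ± 2.06 to 26.1% ± 1.22, while its T > C reads and its other reads rose. The lowest shares in C646 were those of SLC43A1, with 1.58% ± 0.281 after 6.02% ± 1.39 in DMSO, and of SLC7A6, with 2.88% ± 0.313 after 12.6% ± 5.47. Over all 7722 genes the median share was 13.3% in DMSO and 7.37% in C646.

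In a model of T > C against other reads with a library factor, 1 of the 9 was called higher in C646, against 0.79% of all genes, and 3 were called lower, against 38.3%. The odds of a T > C read of SLC7A5 rose by 1.35 ± 0.22 on the log2 scale (edgeR, adjusted p = 2.11e-05). Those of SLC3A2 had a log2 change of 0.37 ± 0.16, which did not pass the test (adjusted p = 0.0554). Those of SLC38A2 had a log2 change of −0.49 ± 0.16, which did not pass 0.01 either (adjusted p = 0.0122, and 0.00997 to 0.0584 with a library left out). SLC7A6 fell by 2.24, SLC43A1 fell by 1.96 and SLC38A1 fell by 1.65 on the log2 scale. By an adjusted p of at most 0.01 without a fold threshold, SLC7A1 was lower as well (log2 change −0.65, adjusted p = 0.00496), which made 4, against 44.8% of all genes, while 1 was higher, against 1.14%. SLC7A1 passed in 1 of the 6 cases with a library left out, without C646 replicate 3, and SLC1A5 passed without C646 replicate 1 (−0.63, adjusted p = 0.00405).

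**Figure D5:**
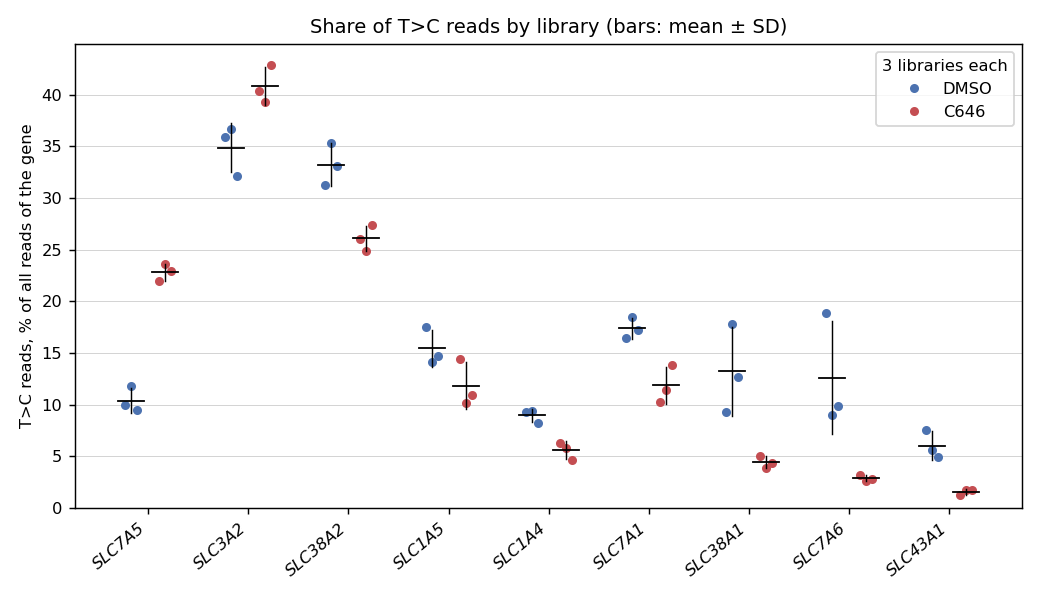
T > C reads as a percentage of all reads of each gene, with 1 point per library, 3 in DMSO (blue) and 3 in C646 (red), and black bars for the mean ± SD. The share of SLC7A5 is 9.49% to 11.8% in DMSO and 22.0% to 23.6% in C646, while that of SLC38A2 and of the 6 genes that fell is lower in C646, with overlapping groups for SLC1A5.

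Over all genes, the libraries held 2.00 to 2.11 conversions per T > C read in DMSO and 1.87 to 1.91 in C646. SLC7A5 had 1.38 ± 0.0210 conversions per T > C read in DMSO and 1.73 ± 0.150 in C646, and SLC7A6 had 2.28 ± 0.189 and 1.15 ± 0.144. A value close to 1 means that most T > C reads carried a lone conversion, as in the C646 replicates of SLC7A6, at 1 to 1.29. The groups overlapped for SLC3A2, with 2.35 ± 0.1001 and 2.36 ± 0.126. What lone conversions from errors add to the lowest counts was not tested.

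The gain in reads of the 3 genes that rose was split into T > C reads and reads without conversions, a split chosen after seeing the data. Reads without conversions come from RNA made before the labelling, the initial hour of C646 included, and from new RNA that carried no 4sU in the sequenced stretch. For SLC7A5 the mean gain was 79.7 scaled CPM in all reads, of which T > C reads made up 35.0%. For SLC3A2 it was 83.4 scaled CPM, with 53.4% in T > C reads. For SLC38A2 it was 141 scaled CPM, with 18.3% in T > C reads. Most of the gain of SLC38A2 thus lay in reads without conversions, where its log2FC was 1.08 ± 0.14 (edgeR, adjusted p = 8.41e-05). It was the 1 gene of the 9 called higher there, against 7.98% of all genes, and 0 were called lower, against 0.886%. At an adjusted p of at most 0.01 whatever the fold, SLC7A5 was higher as well (log2FC 0.80 ± 0.18, adjusted p = 0.00427), 2 of 9 against 12.2% of all genes, and 0 were lower, against 3.43%, with 2 lower at an unadjusted p below 0.05, against 15.0% of all genes. With a library left out the log2FC of SLC7A5 in these reads ran from 0.64 to 0.93, and its adjusted p rose above 0.01, to between 0.0119 and 0.0236, without DMSO replicate 1, DMSO replicate 3, C646 replicate 2 or C646 replicate 3.

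Other amino acid transporters of the plasma membrane had few or no reads in these cells, with exceptions. Among the exceptions, SLC38A5 had 587 to 977 reads in a library, but 2 to 15 T > C reads. Of 29 such genes listed, 1 had enough T > C reads to be tested in new RNA and 5 enough reads in total RNA. The 1 was SLC7A11 (xCT), the cystine and glutamate exchanger and a further light chain of SLC3A2. It was called higher, as were 2.97% of all genes tested. Its T > C reads came to 2.95, 4.02 and 2.83 scaled CPM in DMSO and to 23.8, 26.8 and 26.1 scaled CPM in C646. These groups lay far apart, at a log2FC of 2.97 ± 0.24 in new RNA (edgeR, adjusted p = 3.07e-11) and 1.94 ± 0.17 in total RNA (adjusted p = 2.53e-06). SLC43A2 (LAT4), the paralog of SLC43A1, was called higher in total RNA from few reads, 21, 9 and 11 in DMSO and 54, 71 and 55 in C646 (log2FC 2.07 ± 0.37, adjusted p = 0.00107). Multimapped reads made up 10.9% of its reads over all libraries. SLC7A11 and SLC43A2 made 2 of 5 called higher in total RNA, against 5.89% of all genes, and 0 were called lower, against 1.88%. The other 3 tested in total RNA, SLC7A2, SLC38A5 and SLC7A7, did not pass. Of the 3 light chains of SLC3A2 tested in new RNA, SLC7A5 and SLC7A11 thus rose and SLC7A6 fell.

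Among transporters of lysosomes and mitochondria, 0 were called higher in new RNA, and scaled by all reads 0 were higher at an unadjusted p below 0.05, against 6.02% of all genes tested. Scaled by T > C reads, 1 lysosomal gene, SLC15A4, was higher at an unadjusted p below 0.05, by edgeR (against 21.2% of all genes tested) and by DESeq2 (against 12.4%). Of 6 lysosomal transporters tested, 2 of a list of 10, SLC66A1 (PQLC2, cationic amino acids) and CTNS (cystine), were called lower, at log2FC of −3.39 and −2.53, against 33.0% of all genes tested, and the median of the 6 was −1.20. The count was 1, SLC66A1, with DESeq2, when scaled by all filtered reads and in 5 of the 6 cases with a library left out, the exception being C646 replicate 1. Of 6 mitochondrial carriers tested from a list of 12, 3 were called lower, against the same 33.0%, the aspartate and glutamate carrier SLC25A13 (−2.45), the branched-chain amino acid carrier SLC25A44 (−2.08) and the glycine carrier SLC25A38 (−2.04), and the median was −1.50. These medians stand beside −0.83 over all genes tested, and scaled by T > C reads 1 of 5 lysosomal and 0 of 8 mitochondrial genes tested were called lower, against 7.53% of all genes. In total RNA 0 of 9 lysosomal and 0 of 10 mitochondrial genes tested were called in either direction by edgeR or by DESeq2, against 1.88% of all genes lower and 5.89% higher in edgeR's test. At an unadjusted p below 0.05 both tools gave 3 lysosomal genes lower and 1 higher, and 4 mitochondrial genes lower and 1 higher, where 20.6% of all genes were lower and 22.1% higher in edgeR's test. By the adjusted p in edgeR's test alone, 1 lysosomal gene, SLC66A1, and 1 mitochondrial gene, SLC25A44, were lower and 1 mitochondrial gene, the ornithine carrier SLC25A15, was higher, where 6.29% of all genes were lower and 9.81% higher by that rule.

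In the machinery that reports amino acids to mTORC1, 8 of 30 genes tested in new RNA, from a list of 40, were called lower and 1 higher, with a median log2FC of −0.87. By the same rule 33.0% of all genes tested were called lower and 2.97% higher. The count of lower genes was 5 without DMSO replicate 3. Scaled by T > C reads, 0 of 27 were called lower and 2 higher, against 7.53% and 9.21% of all genes, and edgeR gave 4 lower and 6 higher at an unadjusted p below 0.05, against 19.6% and 21.2%. The largest falls were those of NPRL2, a subunit of the GATOR1 complex that restrains mTORC1 (−2.22), of LAMTOR2, a subunit of the lysosomal anchor (−2.16), and of FLCN, folliculin (−1.78). MTOR, the kinase itself, was among the 8 (−1.35, adjusted p = 0.0075 in edgeR's test). BMT2 (SAMTOR), the sensor of S-adenosylmethionine, was the 1 called higher in new RNA, at 1.33 ± 0.36 (edgeR, adjusted p = 0.00238), a call that was lost without DMSO replicate 2 or C646 replicate 3. In total RNA 2 of 38 were called higher, against 5.89% of all genes, and 0 lower, against 1.88%. These were BMT2, at 2.17 ± 0.27, and LAMTOR3, a subunit of the lysosomal anchor, at 1.28 ± 0.29 (adjusted p = 0.00427). The call of LAMTOR3 was lost without any 1 of the DMSO replicates or without C646 replicate 3. By the adjusted p in edgeR's test alone 3 of the 38 were lower, against 6.29% of all genes, and 2 higher, against 9.81%. The 3 lower were LAMTOR4 (log2FC −0.94), NPRL2 (−0.78) and LAMTOR2 (−0.59).

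Known regulators of the transporter genes differed in direction. Of 10 tested in new RNA from a list of 11, 3 were called lower, MYC, its partner MAX and GCN1, an activator of the amino acid sensor kinase GCN2. By the same rule 33.0% of all genes tested were called lower. Scaled by T > C reads, 1 of the 10 was called lower and 3 higher, against 7.53% and 9.21% of all genes. MYC fell by 2.46 on the log2 scale in new RNA (edgeR, adjusted p = 7.02e-12) and by 1.71 in total RNA (adjusted p = 2.32e-05). ATF4, the factor of the amino acid response, had a log2FC of −0.84 ± 0.15 in new RNA (adjusted p = 3.73e-05) and −0.10 ± 0.16 in total RNA (adjusted p = 0.652). DDIT3 (CHOP) and CEBPB, partners of ATF4, rose at the adjusted p threshold in new RNA, by 0.99 and 0.79. Both were called higher in total RNA, at 1.35 and 1.26. In new RNA 4 of the 10 fell and 2 rose by the adjusted p alone, against 38.0% and 3.83% of all genes. In total RNA 1 of 11, MYC, was called lower and 2 higher, against 1.88% and 5.89% of all genes. By the adjusted p alone 4 were higher there, EIF2S1 at 0.62 among them, against 9.81%, and 1 lower, against 6.29%. NFE2L2, the gene of NRF2, had a log2FC of 0.49 ± 0.24 in new RNA (adjusted p = 0.0821), which did not pass, and rose by 0.89 ± 0.22 in total RNA (adjusted p = 0.00775). Levels of the ATF4 protein, which is known to be set in translation, were not measured here.

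Of the enzymes that use the imported amino acids, 13 of a list of 17 were tested in new RNA, and 2 were called lower and 1 higher, against 33.0% and 2.97% of all genes tested. Scaled by T > C reads, 0 of the 13 were called lower and 3 higher, against 7.53% and 9.21% of all genes. The 1 called higher when scaled by all reads was GLUL, which makes glutamine (log2FC 1.26 ± 0.17, edgeR, adjusted p = 3.54e-07). The 2 called lower were GOT2, the mitochondrial aspartate aminotransferase (−1.65), and BCAT1, which starts the breakdown of branched-chain amino acids (−1.23). PSAT1, of serine synthesis, rose by 0.90 ± 0.23 (adjusted p = 0.00134), below the fold threshold. The median of the 13 was −0.42. In total RNA 0 of 16 were called in either direction by edgeR or by DESeq2, against 1.88% of all genes lower and 5.89% higher in edgeR's test. At an unadjusted p below 0.05 both tools gave 2 lower and 1 higher, against 20.6% and 22.1% of all genes in edgeR's test, and by the adjusted p alone 1, GLUL, was higher, against 9.81%.

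The genes with values most like those of SLC7A5 and SLC3A2 were sought among 2843 genes with a mean of at least 50 T > C reads per library. The measure was the root mean square difference over 12 values, the scaled log2 levels of 6 libraries in new and in total RNA relative to the DMSO mean. SELENOW, ST13 and BANP were nearest to SLC7A5, at 0.18, 0.22 and 0.33, with log2FC in new RNA of 2.10, 1.98 and 2.15. GNA15, WBP2 and JMJD6 were nearest to SLC3A2, at 0.12, 0.12 and 0.13, with log2FC in new RNA of 0.75, 0.76 and 0.81. The libraries are shared by all these genes, so the likeness is a description.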

How the data were processed

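The authors aligned the reads of QuantSeq 3′ end libraries to GRCh38 with slamdunk v0.4.1. They deposited a table for each library, with 58136 3′ UTR entries. The deposited values used here are raw counts of all reads, T > C reads, conversions and multimapped reads, and a signal, the coverage of T positions, all without normalization by the authors. The deposited CPM, which the authors' software scaled by all filtered reads, served to compute those filtered reads. The deposited T > C counts include reads with a lone conversion.

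Counts were summed over the entries of each gene. Multimapped reads were at most 0.744% of the reads of any of the 9 genes in any library. New RNA was tested with edgeR 4.0.16 in R 4.3.3 (glmQLFit, glmQLFTest, filterByExpr, Benjamini-Hochberg adjustment) with TMM-scaled totals of all reads as library sizes, total RNA with TMM on all reads, and the odds of T > C reads in a model with a library factor. Calls needed an adjusted p of at most 0.01 and an absolute log2FC of at least 1. The SE was taken as the absolute log2FC over the root of the F statistic. Scaled CPM are counts divided by the TMM-scaled total of the library, on the usual scale of CPM. The fits were tested on simulated data. Ratios of T > C reads had 1 count added to each gene and were compared by two-sided exact permutation tests. Alternatives used DESeq2 1.42.0, other scalings and filters, glmTreat, a replicate block and each library left out. Plots and summaries used Python 3.11.15 and matplotlib 3.10.9.

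The 9 genes, the lists and the motifs were chosen with earlier results of these data known. Named genes are the 9, up to 3 called genes per direction of each list and those that a sentence on the 9 turns on, which brought in MTOR, ATF4, DDIT3, CEBPB, NFE2L2, PSAT1, SLC43A2 and genes named beside small counts. The 9 genes had 4 to 979 T > C reads and 193 to 3940 reads in a library, and the tested genes a median of 35 T > C reads, which sets the precision of each gene. PCR copies are not independent molecules. Between libraries of the same group, chi-square per degree of freedom was 7.87 to 27.7, so none was a copy of another. Labels name no batch or date. Promoter sequences are from RefSeq, and all 9 genes were matched.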

Additional observations from a re-analysis of the deposited data

How the results depend on the processing

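Of the members, 4 were called lower and 1 higher in new RNA. With TMM on T > C reads and with DESeq2 and size factors from T > C reads, 0 were lower and 3 higher. With a mean of at least 50 T > C reads, 1 was lower, since SLC38A1, SLC7A6 and SLC43A1 had too few reads to be tested. With glmTreat, 1 was lower. With libraries left out in turn, 2 to 5 were lower. The 1 higher in total RNA became 2 when scaled by all filtered reads and 0 to 2 with libraries left out. Over all genes, scaling by T > C reads turned 2550 lower and 229 higher into 591 and 723, glmTreat gave 836 and 105, the minimum of 50 T > C reads 1040 and 125, and scaling by all filtered reads turned 204 lower and 639 higher in total RNA into 90 and 1014.

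In the lists, the counts in new RNA with TMM on T > C reads were 2 plasma membrane transporters higher, 1 lysosomal and 0 mitochondrial lower, 0 of mTORC1 sensing lower and 2 higher, 1 regulator lower and 3 higher, and 0 enzymes lower and 3 higher. DESeq2 with size factors from T > C reads gave 1 lysosomal, 0 mitochondrial, 0 of mTORC1 sensing, 1 regulator and 0 enzymes lower, and 3 regulators and 3 enzymes higher. All filtered reads gave 1 lysosomal lower, 1 regulator higher and 2 enzymes higher, and in total RNA 1 lysosomal and 1 mitochondrial higher. DESeq2 with size factors from all reads gave 1 lysosomal lower. The minimum of 50 T > C reads left 0 lysosomal, 0 mitochondrial, 3 of mTORC1 sensing and 1 enzyme lower, and 0 of mTORC1 sensing higher. With glmTreat, 1 lysosomal, 1 mitochondrial, 0 of mTORC1 sensing, 1 regulator and 0 enzymes were lower, and 0 of mTORC1 sensing and 0 enzymes higher. With libraries left out, new RNA gave 1 to 3 lysosomal and 5 to 8 of mTORC1 sensing lower, 0 to 1 of mTORC1 sensing, 0 to 1 regulator and 1 to 2 enzymes higher; total RNA gave 0 to 1 lysosomal, 0 to 1 mitochondrial and 0 to 1 of mTORC1 sensing lower, and 0 to 1 lysosomal and 1 to 2 of mTORC1 sensing higher.

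The change in total RNA of SLC43A1, −0.05, was 0.16 with all filtered reads and 0.02, 0.03 and 0.14 without DMSO replicate 1, DMSO replicate 2 and C646 replicate 1, and it ran from −0.28 to 0.14 with libraries left out. In reads without conversions its 0.02 was −0.0062 with the replicate block and −0.12 and −0.21 without DMSO replicate 3 and C646 replicate 3. The SLC1A5 to SLC1A4 ratio, with changes of 0.20 in T > C reads and −0.07 in all reads, ran with libraries left out from −0.075 to 0.39 and from −0.25 to 0.044. The cause of these changes was not tested. None of these values passed a test.

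Nothing in the labels says whether same-numbered libraries were run together, so the numbers were not treated as pairs. Deviations of same-numbered libraries were correlated at 0.03 to 0.07 in new RNA, where every library correlated best with its own number, a hint from the data and not from the design, and at −0.00136 to 0.23 in total RNA, where DMSO replicates 1 and 2 and C646 replicate 1 did not. With the replicate block, SLC7A5 stood at 2.16 in new RNA. SLC1A5 (−0.57, adjusted p = 0.00221 in edgeR) and SLC1A4 (−0.49, adjusted p = 0.00707) passed the adjusted p threshold in total RNA, SLC1A5 did so in reads without conversions (−0.51), and 1 lysosomal gene was lower in total RNA. The ratios had a sign-flip p of 0.25 or more, the smallest that 3 pairs allow.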
